A study of Sus scrofa with 16 samples.

Results

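Of the 27370 transcripts measured in the ovaries of 16 sows, 387 were chosen by their measured FPKM, which in each of 4 sows with low fecundity sampled in the follicular phase exceeded that in each of 4 sows with low fecundity sampled in the luteal phase. FPKM divides the fragments of a transcript by its length and by the library's total. A transcript also had to be above 0 in at least 1 of the luteal low-fecundity libraries and to have a mean of at least 20 FPKM in the follicular ones, and the range of identifiers that holds the mitochondrial transcripts was left out. The contrast between these groups therefore made the list, and its values are given as a description with no test. The 8 libraries of sows with high fecundity did not enter the choice.

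The animals were unrelated Canadian Large White sows, divided into high and low fecundity by the total number of piglets born. Ovaries were taken on day 14 of the cycle, in the luteal phase (LH with high and LL with low fecundity), or on day 20, in the follicular phase (FH and FL), counting from the first day of estrus. Each group held 4 sows and each library came from the ovary of 1 sow, after removal of ribosomal RNA. Each animal was sampled in 1 phase only, so phase and animal differ together.

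In the luteal phase the ovary is dominated by corpora lutea, which form from ovulated follicles and secrete progesterone. When they regress, a new cohort of follicles grows under gonadotropins, and granulosa and theca cells make estrogen and its precursors. Ovarian tissue was sequenced in bulk, so that fewer cells of a type and less RNA per cell cannot be told apart in any value given here.

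Most members could not be named. Only 102 of the 387 members could be linked to a gene symbol, and 285 are known by identifier alone. Among all transcripts that met the level and detection parts of the rule, 1679 in number, 23.0% were members, and the other 1292 had FL and LL libraries that overlapped. These 1292 are called the overlapping transcripts below. They met the same minimum level, but their levels were not matched to those of the members. The reverse separation, with every LL library above every FL library, an LL mean of at least 20 FPKM and detection in FL, held for 120 transcripts.

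The libraries differed in ways that bear on the list. Depth, estimated from the steps between low FPKM values, ran from 165000 to 305000 fragments, with 189000 to 205000 in LL and 218000 to 305000 in FL. These depths lie far below that of a usual sequencing run. They also lie far below the clean reads per library that the study's reported total implies. Whether the deposited values were made from a subset of the reads is not given in the sources used here, so fragment counts hold for the deposited table only. Between 4440 and 6081 transcripts were at or above 0.5 FPKM in the LL libraries and between 7215 and 9660 in the FL libraries. Mitochondrial transcripts took 9.92% to 16.2% of the fragments in LL, 4.23% to 5.47% in FL, 2.78% to 7.93% in FH and 2.12% to 10.6% in LH. For depth, detection and mitochondrial share alike, FL and LL did not overlap (exact two-sided permutation test, p = 0.0286 each, the smallest that 4 against 4 can give, adjusted p = 0.0571 over 6 comparisons), while FH and LH overlapped (exact permutation p = 0.657, 0.143 and 0.4 in the same order). The part of depth and detection in the separation of FL from LL was not tested. When mitochondrial fragments were taken out of the scaling, 316 transcripts met the rule, 309 of them among the 387.

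One library stood apart from its group. In LH2 the 387 members held 52.4% of all fragments, against 19.1%, 24.3% and 24.0% in LH1, LH3 and LH4. The corresponding share was 16.7% to 23.9% in LL, 25.3% to 38.1% in FH and 37.8% to 42.7% in FL, so this luteal library exceeded every follicular one. LH2 also had the lowest mitochondrial share of all 16 libraries, 2.12%. The main counts over members that use LH and the fold changes of the named members are therefore also given without LH2.

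**Figure D1:**
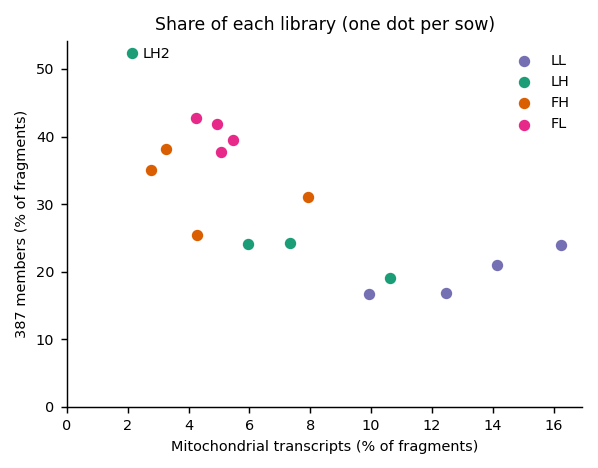
Share of each library's estimated fragments taken by the 387 member transcripts (vertical axis, %) and by mitochondrial transcripts (horizontal axis, %), 1 dot per sow, coloured by group. The LL libraries lie at lower right with members at 16.7% to 23.9%, the FL libraries at 37.8% to 42.7%, and LH2 alone at 52.4%.

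Most members were detected in every LL library, and their levels spanned a wide range. All 4 LL libraries were above 0 in 298 members, 3 libraries in 31 members, 2 in 27 and only 1 in 31. The median over members of the group mean was 25.4 FPKM in LL and 73.0 FPKM in FL. Means in FL reached 63190 FPKM, with 161 members at 100 FPKM or more and 34 at 1000 FPKM or more. The ratio of the FL mean to the LL mean had a median of 2.74, from 1.27 to 151. The gap was narrower between the nearest libraries, where the lowest FL value was a median of 1.29 times the highest LL value and at least 2 times it in 57 members. Ratios shrank with level, from a median of 4.71 among the 127 members under 50 FPKM in FL to 2.12 among the 34 at 1000 FPKM or more.

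Counting error limits the low end. A median of 49 estimated fragments over the 4 LL libraries and of 195 over the 4 FL libraries stood behind a member. The LL sum was 3 fragments or fewer in 54 members and 10 or fewer in 88, and ratios against such sums are not resolved. At a transcript length of 2000 nt, 1 fragment was worth 1.85 FPKM in the deepest library and 3.47 FPKM in the shallowest. Members had a median length of 2503 nt, against 2153 nt in the overlapping transcripts and 1434 nt in the whole table. Within the list, 16 members shared all 16 values with a second transcript, so that the list holds 379 different sets of values.

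The rule's edges were not marked by any gap. Just inside, ENSSSCT00000012084 had a lowest FL value of 29.1 FPKM against a highest LL value of 29.0 FPKM, ENSSSCT00000009053 had 150.6 against 150.2 FPKM, and ENSSSCT00000025295 had 29.8 against 29.7 FPKM. Just outside, the pair was 163.9 and 164.4 FPKM in ENSSSCT00000008590, 41.8 and 41.9 FPKM in ENSSSCT00000024973 and 19.3 FPKM for both, to 3 digits, in ENSSSCT00000005026. On the level criterion, ENSSSCT00000001878 and ENSSSCT00000016091 entered with FL means of 20.1 and 20.2 FPKM, while ENSSSCT00000019188 and ENSSSCT00000032471 stayed out with 19.93 and 19.88 FPKM.

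Sows with high fecundity, which the rule did not use, lay between these extremes for most members. The LH mean lay between the LL and FL means in 359 of 387 members and the FH mean in 318. The median over members of the group mean was 46.2 FPKM in LH and 57.5 FPKM in FH. In 224 members the 4 means were ordered LL, LH, FH and FL from low to high, 59 members had an FH mean at or above the FL mean, and 7 had such an LH mean. All 4 FH libraries exceeded the highest LL library in 137 members and all 4 LH libraries in 37, with 28 members meeting both. Without LH2 the LH mean lay between the LL and FL means in 291 members and at or below the LL mean in 90, against 21 with it, the median over members was 38.7 FPKM, all 3 remaining LH libraries exceeded the highest LL library in 43, and 201 members had the 4 means in the order above. The choice fixed the extremes, so an intermediate place is no finding about the members. Members were chosen for low LL values, so counts of libraries above the highest LL library are no finding either. No share over all transcripts was taken beside those counts. The same limit holds below wherever libraries of a member are said to lie above LL.

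The luteal libraries with high fecundity were not alike. Relative to its LL mean, the median member had a log2(FPKM + 1) difference of -0.08 in LH1, 1.34 in LH2, 0.42 in LH3 and 0.47 in LH4. The same median was 0.73, 1.18, 0.71 and 1.15 in FH1 to FH4 and 1.24, 1.39, 1.41 and 1.37 in FL1 to FL4. LH1 was therefore near the LL libraries, LH2 near the FL libraries, and LH3 and LH4 lay between. By number, LH1 exceeded the highest LL library in 101 members, LH2 in 309, LH3 in 178 and LH4 in 200.

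**Figure D2:**
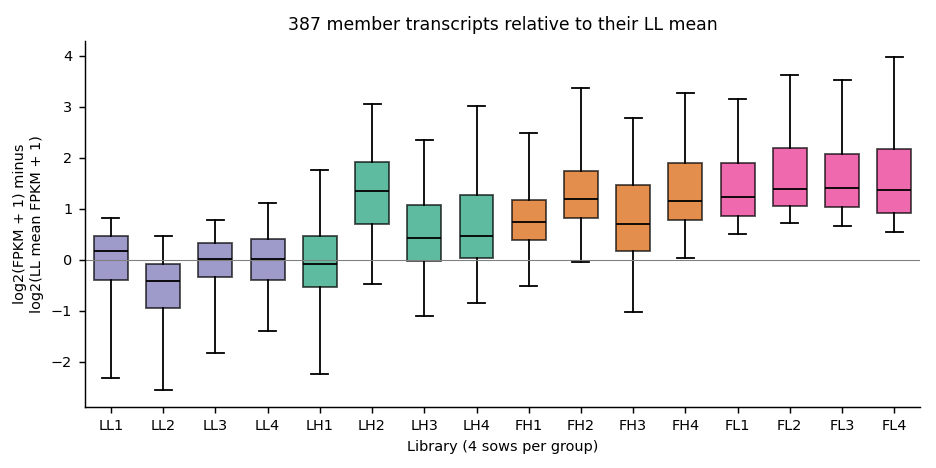
Box plots of log2(FPKM + 1) minus log2(LL mean FPKM + 1) for the 387 members in each of the 16 libraries, coloured by group, with the median as a line, boxes from the 25th to the 75th percentile and whiskers from the 5th to the 95th. LL and FL chose the members, LH2 has a median of 1.34 within the FL range of 1.24 to 1.41, and LH1 lies at -0.08.

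LH2 held the highest of all 16 values in 96 members (24.8%), more than FL4 with 87 (22.5%), FL2 with 51, FL3 with 42 and FL1 with 16. The share of members highest in LH2 rose with level, from 11.8% under 50 FPKM to 61.8% at 1000 FPKM or more. Among the overlapping transcripts LH2 was highest in 5.11% and FL4 in 18.6%. LH2 exceeded every FL library in 103 members (26.6%) and in 8.05% of the overlapping transcripts. Levels were not matched between members and overlapping transcripts, and the part of level in these differences was not tested. FH4 and FH2 were highest in 40 and 31 members, and LH4 in 9. No such share was tested, because members of 1 library share its preparation and scaling.

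**Figure D3:**
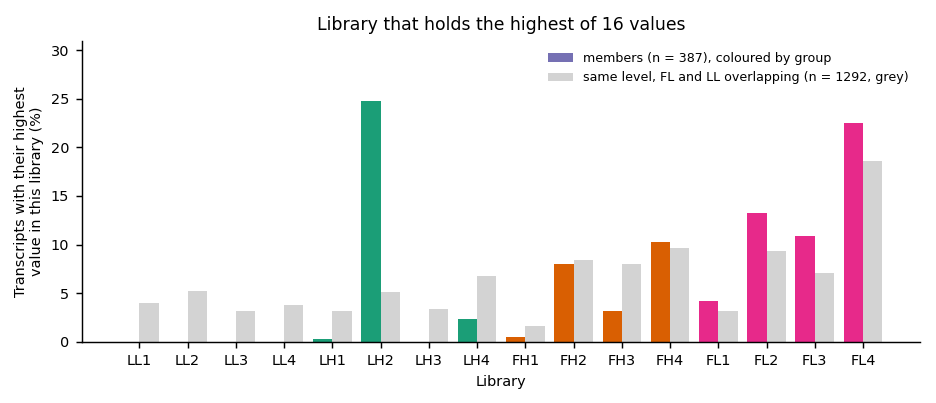
Share of transcripts (vertical axis, %) whose highest of 16 values falls in each library, for the 387 members (coloured bars) and the 1292 overlapping transcripts (grey bars). The overlapping transcripts met the same minimum level but were not matched in level. LH2 holds 24.8% of members against 5.11% of the others and FL4 22.5% against 18.6%, and no LL library can hold a member's highest value because the rule bars it.

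The most abundant members varied together across libraries. Over the 8 libraries of LH and FH, the 34 members at 1000 FPKM or more had a median pairwise Pearson correlation of 0.85 in log2(FPKM + 1), and 0.81 without LH2, over 7 libraries. The 127 members under 50 FPKM had 0.23 over 8 libraries. Abundant members share depth and scaling and have little counting error, so these correlations describe these libraries only. No such correlation was computed for other transcripts of that level, so the joint variation is not shown to be particular to the members. The 10 most abundant members took 8.01% to 12.3% of all fragments in LL, 17.5% to 19.9% in FL, 11.7% to 18.3% in FH and 10.5% to 26.1% in LH.

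The 2 most abundant members with a symbol had small ratios of FL to LL. ITPKC (ENSSSCT00000003332), a kinase that phosphorylates inositol trisphosphate, was at 6619, 7253, 6828 and 4194 FPKM in LL1 to LL4, 7673, 14356, 8525 and 7775 in LH1 to LH4, 8434, 9876, 6052 and 7590.2 in FH1 to FH4 and 8990.3, 9653, 10453 and 8039.8 in FL1 to FL4. Its group means were 6224 ± 1378 FPKM in LL, 9582 ± 3205 FPKM in LH, 7988 ± 1599 FPKM in FH and 9284 ± 1022 FPKM in FL (SD, n = 4). LH2 was the highest library and LL4 the lowest, all LH libraries lay above all LL libraries, and FH overlapped every other group. KL (ENSSSCT00000010244), the co-receptor for the hormone FGF23, was at 5736, 5159, 5606 and 3878 FPKM in LL, 5845, 11350, 7081 and 6435 in LH, 7286, 8187, 5469.6 and 6497 in FH and 7589.5, 7991, 8478 and 6517 in FL. LH2 was again highest and LL4 lowest, and again all LH libraries lay above all LL libraries. The ratio of the FL to the LL mean was 1.49 for ITPKC and 1.5 for KL. Whether all fragments behind such levels came from these genes was not tested, here or for the named members below.

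Of the 15 most abundant named members, several are enzymes. PHOSPHO2 (ENSSSCT00000017352), a phosphatase, was at 1178, 927, 768 and 742 FPKM in LL, 890.5, 2246, 1307 and 912 in LH, 1399, 1698, 741 and 1136 in FH and 1495, 1542, 2222 and 1361 in FL. PCCB (ENSSSCT00000012757), the beta subunit of propionyl-CoA carboxylase, was at 817, 643, 462 and 449.5 FPKM in LL, 559.5, 1944, 883 and 623 in LH, 1000.1, 1166, 523 and 886 in FH and 1096, 1028, 1341 and 841 in FL. FUCA2 (ENSSSCT00000004568), a fucosidase, was at 459, 313, 374 and 266 FPKM in LL, 259, 967, 345 and 346 in LH, 388, 641, 345 and 599 in FH and 577, 667, 637 and 619 in FL. In all of these LH2 was the highest library of the series, above every FL library, while LH1, LH3 and LH4 of PCCB and FUCA2 lay within or near the LL range. FH3 was the lowest FH library in each. The ratio of the FL to the LL mean was 1.83, 1.82 and 1.77, respectively.

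Others are receptors or signalling proteins. TNFRSF19 (ENSSSCT00000036003), a receptor of the tumour necrosis factor family, was at 579.7, 275, 340.5 and 364 FPKM in LL, 309.8, 1569, 370.1 and 377 in LH, 657, 832, 446 and 685 in FH and 871, 1054, 974 and 783 in FL. FIBP (ENSSSCT00000014176), which binds an acidic fibroblast growth factor, was at 387, 240.5, 259.9 and 233 FPKM in LL, 228, 1065, 291 and 245 in LH, 553, 518, 308 and 528 in FH and 684, 528, 727 and 541 in FL. ARHGAP6 (ENSSSCT00000034145), a regulator of small GTPases, was at 449, 181, 215 and 255 FPKM in LL, 202, 830.3, 309.8 and 345 in LH, 448, 472, 213 and 495 in FH and 513, 589, 599.8 and 506 in FL. LH2 stood far above the other LH libraries in each, by more than 2 times the next one, and above all FL libraries. FCAR (ENSSSCT00000032870), a receptor for the Fc part of immunoglobulin A, was at 277, 307, 175 and 143 FPKM in LL, 242, 772, 259 and 182 in LH, 359, 485, 189 and 425 in FH and 519, 470.4, 536 and 585 in FL. Here too LH2 was highest, and LH1, LH3 and LH4 lay within the LL range.

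MB21D1 (ENSSSCT00000030573), the cytosolic DNA sensor also called cGAS, had an FL mean 3.59 times its LL mean. It was at 138, 59.99, 109 and 142 FPKM in LL, 52.8, 579, 194 and 104 in LH, 330.2, 371, 297 and 272 in FH and 532, 259.97, 480.1 and 338 in FL. The mean was 112 ± 37.6 FPKM in LL, 233 ± 238 in LH, 318 ± 42.7 in FH and 403 ± 126 in FL (SD, n = 4). FH lay wholly above LL with a narrow spread, whereas LH ran from below all LL libraries to above all FL libraries.

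A cytokine and a secreted factor were also among the 15. IFN-OMEGA-6 (ENSSSCT00000033408), a type I interferon, was at 313, 77.4, 503 and 292 FPKM in LL, 343, 931, 320.4 and 1022 in LH, 647, 870.3, 1015 and 1195 in FH and 1343, 2158, 1022 and 1624 in FL. FL2 was highest and LL2 lowest, and LH and FH overlapped. ANGPTL1 (ENSSSCT00000016909), a secreted protein related to angiopoietins, was at 53.1, 42.8, 131 and 103 FPKM in LL, 91.8, 358, 209 and 95.97 in LH, 219, 211, 302 and 395 in FH and 327, 618, 314 and 308 in FL. FL2 stood above the other 3 FL libraries, and all FH libraries lay above all LL libraries. Interferon genes are a family of near-identical copies, so the assignment of fragments among them is uncertain.

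CH242-414D14.1 (ENSSSCT00000033362), a gene with a clone-based name, was at 371, 257, 539 and 464 FPKM in LL, 469, 1001, 239 and 353 in LH, 586, 382, 816 and 2013 in FH and 1125, 1445, 1115 and 1103 in FL. FH4 was the highest library, and FH2 lay below the highest LL library. TMEM243 (ENSSSCT00000026505), a membrane protein, was at 265, 306, 302 and 344 FPKM in LL, 369, 308, 401 and 315 in LH, 314, 362, 477 and 424 in FH and 419.6, 364, 385 and 373 in FL, with FL and LL barely apart and FH3 and FH4 above every FL library. ATP5S (ENSSSCT00000005533), a factor coupled to the mitochondrial ATP synthase, was at 68.6, 85.7, 167 and 179.6 FPKM in LL, 136, 165, 134 and 929.8 in LH, 224, 252, 343 and 277 in FH and 246, 306, 233 and 663 in FL. LH4 was its highest library and FL4 the next, while all FH libraries lay above all LL libraries. Of these 15 most abundant named members, 10 had their highest value in LH2, and 18 of all 102 named members did.

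**Figure D4:**
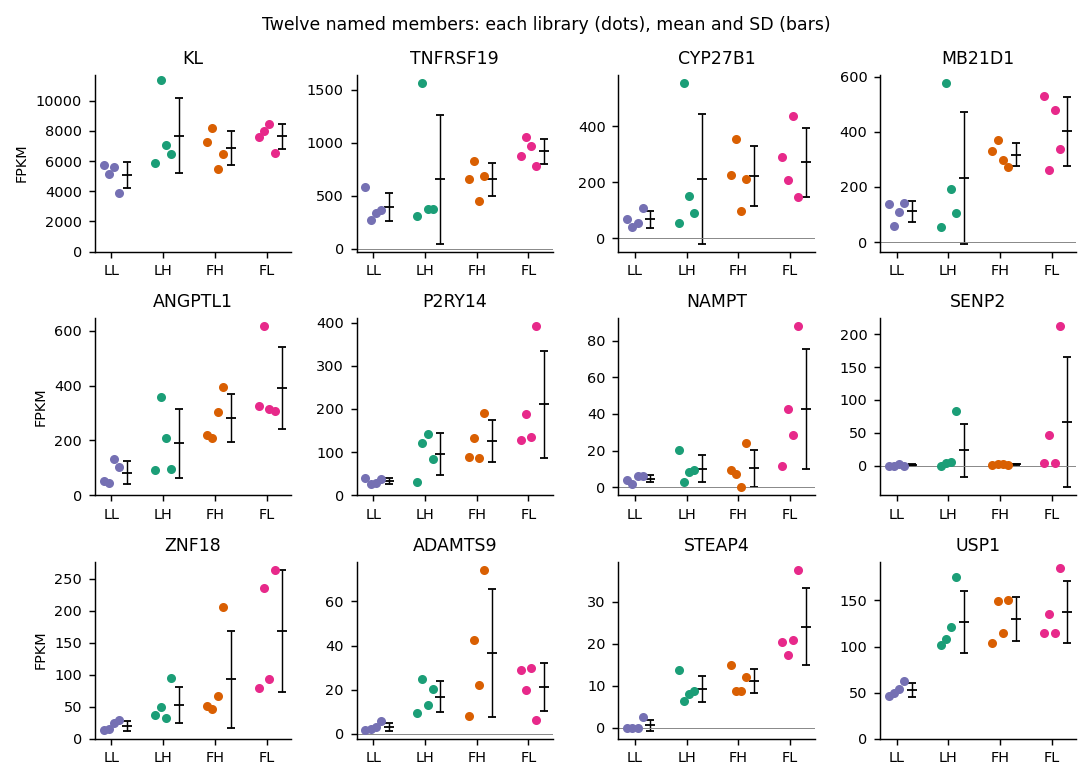
FPKM of 12 named members in every library (dots, 4 sows per group, linear axes that differ between panels), with the group mean and SD beside them. LH2 is the separate high dot in LH for KL, TNFRSF19, CYP27B1 and MB21D1, FL4 is the high dot in FL for P2RY14, NAMPT and SENP2, and USP1 has 3 groups at like levels above LL.

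Functional groups were set by symbol, and each is small because few transcripts could be named. Of the 395 named transcripts that met the level and detection criteria, 102 (25.8%) were members. Zinc finger transcription factors contributed 6 members of 9 such transcripts, small GTPases and their regulators 3 of 10, and transporters, steroid and lipid genes 2 of 7 each. Translation factors contributed 2 of 4, proteasome and ubiquitin genes and G protein and kinase signalling 1 of 4 each, chaperones 1 of 3, nuclear-encoded respiratory chain genes 1 of 2 and matrix and adhesion genes 1 of 5. By these symbols, ribosomal proteins, RNA processing, cytoskeleton, and the IGF, TGF-beta and Wnt group had 3 transcripts at this level each and no member. These counts describe the choice. With LH2 included, none of the members placed in these groups by symbol passed the threshold of the FH vs LH comparison described below. Without LH2, MAPK6 and CYP27B1 passed it as higher in FH. Genes of like function with other symbols fall outside the groups. The members MAPT, GDF11, GRPEL2 and MATN2 matched none of the symbols used, and GRPEL2 and MATN2 passed that threshold.

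The zinc finger proteins ZNF18, ZNF594, ZNF565, ZNF510, ZBTB17 and ZNF583 bind DNA, and all but ZBTB17 were highest in FL4. ZNF18 (ENSSSCT00000019609) was at 13.01, 14.2, 23.9 and 28.96 FPKM in LL, 36.5, 49.1, 32.6 and 93.9 in LH, 50.8, 46.9, 66.3 and 205 in FH and 78.8, 236, 93.5 and 264 in FL. FL2, FL4 and FH4 were high and the other FL and FH libraries lay well below them, while all LH libraries exceeded all LL libraries. ZNF510 (ENSSSCT00000012230) was at 26.2, 3.21, 10.3 and 3.47 FPKM in LL, 33.4, 68.3, 49.4 and 35.5 in LH, 42.3, 82.4, 47.5 and 45.3 in FH and 33.8, 57.8, 40.5 and 104 in FL. All LH and FH libraries lay above all LL libraries, and FH overlapped FL. ZNF594 had a lower mean in LH than in LL, 14.8 against 22.4 FPKM. For ZNF565 the LH and LL means were 27.5 and 17.7 FPKM, and for ZBTB17 22.8 and 29.5 FPKM.

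Both cytochromes P450 among the members act in hormone metabolism. CYP27B1 (ENSSSCT00000029435), the hydroxylase that activates vitamin D, was at 67.4, 39.7, 55.2 and 109 FPKM in LL, 54.2, 555, 150.1 and 91.5 in LH, 225, 355, 96.9 and 213 in FH and 291, 209, 435 and 147 in FL. LH2 was the highest library, and FH and FL overlapped broadly. CYP21A2 (ENSSSCT00000034049), a steroid hydroxylase on the route to glucocorticoids and mineralocorticoids, was at 29.9, 38.1, 31.5 and 66.5 FPKM in LL, 60.9, 54.7, 113 and 100.1 in LH, 173, 105, 148 and 65.1 in FH and 110.2, 212, 137 and 388 in FL. FL4 was highest, and the lowest FH library lay within the LL range. The ratio of the FL to the LL mean was 3.99 for CYP27B1 and 5.1 for CYP21A2.

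In protein handling and translation, USP1 (ENSSSCT00000004227), a deubiquitinase of the DNA damage response, was at 46.02, 49.2, 54.3 and 62.8 FPKM in LL, 102, 109, 121 and 176 in LH, 104, 149.98, 114 and 150.2 in FH and 114, 135, 115 and 185 in FL. LL stood below every other library, while LH, FH and FL overlapped. EIF4A1 (ENSSSCT00000019541), the RNA helicase of cap-dependent initiation, was at 4.18, 0, 13.2 and 17.8 FPKM in LL, 0, 21.7, 14.03 and 34.03 in LH, 22.8, 30.01, 30.5 and 41.4 in FH and 35.03, 18.4, 28.99 and 26.4 in FL, and EIF3M (ENSSSCT00000014541), a subunit of an initiation complex, had means of 1.6, 10.7, 21.6 and 20.8 FPKM in LL, LH, FH and FL. FH was highest of the 4 means for both. DNAJB5 (ENSSSCT00000005834), a co-chaperone, rested on means of 12.4, 29.8, 40.9 and 37.5 FPKM in the same order.

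ADAMTS9 (ENSSSCT00000012579), a secreted metalloprotease that cleaves proteoglycans, was the member placed in the matrix group by symbol. It was at 1.54, 2.24, 3.22 and 5.61 FPKM in LL, 9.45, 24.9, 12.8 and 20.1 in LH, 7.84, 42.4, 22.1 and 74.4 in FH and 28.9, 19.8, 30.01 and 6.29 in FL. All LH and FH libraries lay above all LL libraries, FH4 and FH2 were highest, and FL4 was barely above LL4. Of the transporters, ATP6V1F (ENSSSCT00000018047), a subunit of the vacuolar proton pump, had means of 23.2, 75.3, 53.8 and 120.2 FPKM in LL, LH, FH and FL. SLC35A1 (ENSSSCT00000004759), the Golgi carrier of CMP-sialic acid, had 13.3, 45.4, 46.2 and 64.2 FPKM in the same order. MAPK6 (ENSSSCT00000005107), an atypical MAP kinase, was at 31.5, 36.2, 64.97 and 86.6 FPKM, and the GTPase regulators ARFGEF1 and ARHGAP9 had LL means of 34.1 and 12.6 FPKM and FL means of 105 and 99.9 FPKM.

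A further set of members owed its FL mean mainly to FL4, and was chosen for mention after its values were seen. In 17 members FL4 alone made up more than 50% of the sum of the 4 FL libraries, and 11 of them have a symbol. SENP2 (ENSSSCT00000024072), a protease that removes SUMO from proteins, was at 0, 0, 2.21 and 0 FPKM in LL, 0, 3.49, 6.17 and 83.04 in LH, 0.72, 2.86, 2.51 and 1.04 in FH and 3.42, 46.9, 3.3 and 212 in FL. Only FL4, LH4 and FL2 were well above the level of a few fragments. NAMPT (ENSSSCT00000016815), the rate-limiting enzyme of NAD salvage, was at 4.04, 1.97, 6.36 and 6.37 FPKM in LL, 20.4, 2.65, 8.44 and 9.12 in LH, 9.61, 7.28, 0 and 23.9 in FH and 11.8, 42.9, 28.2 and 87.9 in FL, with FL4 and FL2 highest and LH1 and FH4 above FL1. PITPNB (ENSSSCT00000024426), a phosphatidylinositol transfer protein, was at 0, 0, 0 and 2.08 FPKM in LL, 0, 12.99, 1.65 and 19.7 in LH, 1.35, 3.57, 7.14 and 13.7 in FH and 6.4, 31.5, 3.07 and 109.5 in FL, with FL4 highest and FL2 and LH4 next.

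The remaining named ones were P2RY12, ZNF594, DNTTIP2, PRDM7, SIAH2, TMEM256-PLSCR3, FAM63A and ORAI1. FL4 stood at 268, 147, 170.5, 135, 97.7, 102, 96.0 and 50.8 FPKM in that order. In TMEM256-PLSCR3, as in FAM63A, LH4 came next with 82.5 and 76.2 FPKM. P2RY12 and P2RY14, receptors for extracellular nucleotides that lie near each other in the genome with 2 genes between them (RefSeq gene order, assembly Sscrofa11.1), were both highest in FL4. P2RY14 (ENSSSCT00000012822) was at 40.3, 26.5, 28.4 and 38.3 FPKM in LL, 30.6, 122, 143 and 85.1 in LH, 88.5, 133, 87.2 and 191 in FH and 127, 189, 134 and 393 in FL, and FL4 was at least 2 times every other library in both receptors. Without FL4, 512 transcripts met the rule, 372 of them among the 387.

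Sphingolipid enzymes and the matrix synthase HAS1 were also named only after their values were seen. SGPL1, the lyase that degrades sphingosine phosphate, had means of 22.7 FPKM in LL, 40.7 in LH, 57.05 in FH and 51.9 in FL. For SPTLC2, a subunit of serine palmitoyltransferase, the means were 5.32, 12.8, 27.2 and 20.9 FPKM, and for SMPD4, a sphingomyelinase, 1.34, 13.02, 18.5 and 30.7 FPKM. FH exceeded FL in the means of SGPL1 and SPTLC2. HAS1, a hyaluronan synthase, had 20.3, 16.4, 29.3 and 44.5 FPKM, with the LH mean below the LL mean. STEAP4, a metalloreductase, was at 0, 0, 0 and 2.58 FPKM in LL, 13.8, 6.41, 8.18 and 8.84 in LH, 14.97, 8.81, 8.85 and 12.1 in FH and 20.6, 17.3, 20.9 and 37.7 in FL, so that LL rested on 1 library above 0 and FL lay above all other libraries.

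The independent comparison was FH with LH, which asks whether the members also differed between the phases in sows with high fecundity. It was fitted with limma on log2(FPKM + 1) over the 7129 transcripts with at least 0.5 FPKM in at least 4 of these 8 libraries, and 385 of the 387 members entered. The cut-off was that of the study, a log2 fold change of at least 1 in size and p below 0.05 before adjustment. By it, 354 transcripts (4.97% of those tested) were higher in FH. Of the members, 15 (3.90%) were, and of the overlapping transcripts 62 of 1224 (5.07%). The members' share was therefore near the background. Transcripts lower in FH numbered 70 (0.982%), with 3 members (0.779%).

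After Benjamini-Hochberg adjustment in limma, 1 transcript in the table (0.014%) and no member had an adjusted p under 0.05, the smallest adjusted p among members being 0.315. At an unadjusted p under 0.05 there were 21 members (5.45%), against 6.03% of all transcripts tested. Limma voom on the estimated fragments, an alternative chosen after the data were seen, gave 38 transcripts with an adjusted p under 0.05, 2 of them members. Every FH library exceeded every LH library in 9 members (2.34%), against 3.49% of all tested, and the reverse held for 0 members (0.561% of all tested).

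In direction the members leaned to FH more often than other transcripts did. The mean log2 value was higher in FH in 336 of 385 members (87.3%), against 69.7% of all transcripts tested and 66.4% of the overlapping ones. On plain FPKM means, FH exceeded LH in fewer, 301 of 387 members, and no such share was taken over all transcripts. The median log2 fold change was 0.43 in members, 0.25 in overlapping transcripts and 0.36 in all tested. Median-ratio scaling moved the median of all transcripts to 0.18 and that of the members to 0.16, and quantile normalization moved them to 0.0021 and 0.23. The share of members higher in FH was then 65.7% and 74.0%, against 60.1% and 50.1% of all transcripts. Under median-ratio scaling the median of the members therefore lay below that of all transcripts. The lean also depended on LH1, which held the lowest value among the LH and FH libraries, ties included, in 207 of 387 members. Without LH1 the mean log2 value was higher in FH in 70.9% of members, 61.6% of all transcripts and 62.4% of the overlapping ones. The median log2 fold change was then 0.218 in members and 0.215 in all transcripts. Members share libraries and are not replicates, so the shares were not tested.

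Without LH2 the members' counts lay above the background. Of 6171 transcripts tested, 488 (7.91%) passed the study's threshold with FH higher, and of the members 59 of 382 (15.4%), including all 15 found with LH2. The overlapping transcripts had 103 of 1211 (8.51%). Lower in FH were 3 members (0.785%), against 1.96% of all transcripts tested. Every FH library exceeded every remaining LH library in 75 members (19.6%), against 9.01% of all transcripts and 9.41% of the overlapping ones. The mean was higher in FH in 91.1% of members, 70.6% of all transcripts and 60.9% of the overlapping ones. The member median of the log2 fold change was 0.71, and that of all transcripts 0.49. Still no member had an adjusted p under 0.05 in limma (smallest 0.0564, 98 members at an unadjusted p under 0.05), and 3 transcripts of the whole table (0.0486%) did. LH2 was left out because of its values, so the second set of counts does not replace the first.

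**Figure D5:**
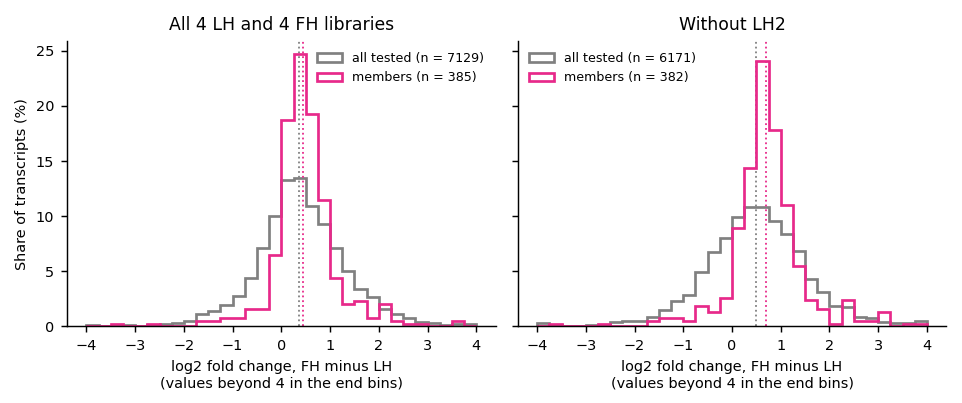
Histograms of the log2 fold change of FH minus LH on the log2(FPKM + 1) scale, as a share of transcripts (vertical axis, %), for members (coloured) and all transcripts tested (grey), with all 8 libraries (left) and without LH2 (right). Dotted lines mark the medians, 0.43 for members and 0.36 for all on the left and 0.71 and 0.49 on the right, and members form the narrower peak in both.

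Of the 15 members that passed as higher in FH with all 8 libraries, 3 have a symbol. CDIP1 (ENSSSCT00000008703), a protein that promotes cell death, was at 14.9, 10.1, 14.8 and 17.97 FPKM in LH and 16.5, 65.7, 34.6 and 91.8 in FH, and 3 of 4 FH libraries lay above all LH libraries. Its log2 fold change of FH over LH was 1.55 ± 0.59 (SE, limma, unadjusted p = 0.0197, adjusted p = 0.705), and 1.40 ± 0.60 without LH2. MATN2 (ENSSSCT00000006673), a matrilin of the extracellular matrix, was at 0, 6.77, 0 and 0 FPKM in LH and 2.36, 15.6, 4.2 and 17.1 in FH, and its log2 fold change was 2.35 ± 1.02 (SE, limma, unadjusted p = 0.0372, adjusted p = 0.769), and 3.09 ± 0.92 without LH2. Only LH2 was above 0 in LH, so MATN2 rested on 3 estimated LH fragments and 12 FH fragments.

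GRPEL2 (ENSSSCT00000015777), a mitochondrial co-chaperone, was at 33.5, 111, 48.8 and 65.5 FPKM in LH and 78.9, 265, 98.1 and 122 in FH. Its log2 fold change was 1.08 ± 0.50 (SE, limma, unadjusted p = 0.0459, adjusted p = 0.769), and 1.39 ± 0.46 without LH2, while FH1 and FH3 lay below LH2. Of the members without a symbol, ENSSSCT00000026166 was at 0, 0, 10.6 and 12.8 FPKM in LH and 48.9, 25.9, 35.8 and 57.6 in FH, with no overlap between the groups. Its log2 fold change was 3.53 ± 0.91 (SE, limma, unadjusted p = 0.00159, adjusted p = 0.315), and 2.92 ± 0.86 without LH2. ENSSSCT00000032125 was at 0, 28.1, 0 and 0 FPKM in LH and 29.4, 26.1, 36.2 and 21.8 in FH, and its log2 fold change was 3.64 ± 1.03 (SE, limma, unadjusted p = 0.00323, adjusted p = 0.343), and 4.85 ± 0.76 without LH2. LH2 was within the FH range there and the other LH libraries were at 0.

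The 3 members that passed as lower in FH overlapped between the groups. YPEL4 (ENSSSCT00000014400) was at 72.7, 40.1, 22.03 and 31.7 FPKM in LH and 1.99, 31.6, 14.1 and 20.2 in FH. Its log2 fold change was -1.55 ± 0.72 (SE, limma, unadjusted p = 0.0498, adjusted p = 0.769), on 64 LH and 24 FH fragments, and without LH2 it no longer passed, at -1.52 ± 0.80 (limma, unadjusted p = 0.0828). ENSSSCT00000025359 was at 22.7, 11.5, 24.7 and 22.3 FPKM in LH and 13.2, 0, 0 and 0 in FH, and its log2 fold change was -3.40 ± 0.97 (SE, limma, unadjusted p = 0.00336, adjusted p = 0.343), and -3.64 ± 1.08 without LH2, on 9 LH and 2 FH fragments. For ENSSSCT00000019425 the values were 0, 26.9, 11.8 and 25.4 FPKM in LH and 0, 6.27, 0 and 0 in FH, and its log2 fold change was -2.59 ± 1.19 (SE, limma, unadjusted p = 0.0466, adjusted p = 0.769), on 12 and 1 fragments. Without LH2 the last of these was below the filter on low values and was not tested. The fitted values of members at 0 in most libraries of a group depend on the added 1 FPKM and bound nothing.

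None of the 15 most abundant named members passed with LH2, and 3 passed without it. With all 8 libraries MB21D1 had a log2 fold change of 0.99 ± 0.57 (SE, limma, adjusted p = 0.770), and without LH2 1.61 ± 0.41. ANGPTL1 moved from 0.76 ± 0.47 to 1.14 ± 0.38, and CH242-414D14.1 from 0.80 ± 0.53 to 1.19 ± 0.48. Among named members that passed without LH2, chosen here after their values were seen, were also CYP27B1, from 0.49 ± 0.62 to 1.14 ± 0.48, and SOCS4, a suppressor of cytokine signalling, from 0.81 ± 0.46 to 1.01 ± 0.45. In all, 16 named members passed as higher in FH and 1, the interferon IFN-DELTA-7, as lower.

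In ITPKC and KL the LH libraries reached as high as the FH libraries. The log2 fold change was -0.23 ± 0.36 for ITPKC and -0.13 ± 0.35 for KL, and without LH2 -0.02 ± 0.24 and 0.08 ± 0.24. Neither passed the threshold with or without it.

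Cell-type markers could be read only in part, because 15 of the 60 fixed markers could be linked to a transcript. At a transcript length of 2000 nt, 1 fragment was worth 1.85 to 3.47 FPKM. Many marker values therefore stand for few fragments, and a 0 does not show absence. Of the luteal and steroidogenic list, PTGFR, the receptor for prostaglandin F, was at 5.74 to 23.1 FPKM in LL, 1.2 to 3.29 in LH, 0 to 8.22 in FH and 0 in all FL libraries. SCARB1, a receptor that takes up cholesterol, was at 0 to 23.9 FPKM in LL, 0 to 3.92 in LH, 0 to 1.96 in FH and 0 to 5.91 in FL. Of the granulosa list FOXL2 and GATA4 were linked, with sums of 0 to 15.1, 0 to 19.4, 5.58 to 13.6 and 4.93 to 6.48 FPKM in the same order. The keratins KRT8 and KRT19 of surface epithelium were at 0 in all LL libraries and summed to 0 to 7.03 in LH, 0 to 11.7 in FH and 0 to 20.6 FPKM in FL.

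The stroma list, with 3 of 8 linked, summed to 11.2 to 22.6 FPKM in LL, 8.75 to 23.0 in LH, 3.09 to 13.3 in FH and 2.85 to 15.1 in FL. Of that list COL3A1, a fibrillar collagen, was at 11.2 to 19.5 FPKM in LL, 4.04 to 12.5 in LH, 0 to 5.31 in FH and 0.87 to 6.09 in FL, with every LL library above every FL library. The other linked stroma markers did not follow it. COL1A2 was at 0 to 4.36 FPKM in LL and 0 to 7.58 in FL. LUM was at 0 in all LL libraries and at 0 to 1.42 FPKM in FL. The leukocyte marker CD68 ran from 0 to 36.6 FPKM in LL, 16.9 to 24.9 in LH, 23.0 to 73.3 in FH and 16.9 to 53.1 in FL. The single linked markers of smooth muscle, endothelium, red blood cells and oocytes were each below 16 FPKM in every library. No linked marker was a member. PTGFR was at 0 in FL and the epithelial sum was 0 in the LL libraries, which were shallower than those of FL. Neither 0 shows absence. COL3A1, unlike COL1A2 and LUM, was lower in every FL library than in any LL library. The part of these markers in the separation of FL from LL was not tested.

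The size of the list depended on how libraries were set to a common scale. Median-ratio size factors, computed from the FPKM values, ran from 0.748 to 0.930 in LL and from 1.13 to 1.35 in FL, so a typical transcript detected throughout was itself higher in FL. After division by them 165 transcripts met the rule, all of them among the 387, and 230 met the reverse rule. Under quantile normalization 170 met the rule, 169 of them members, and 224 the reverse. Both scalings kept 127 members, and of the 102 named members median-ratio scaling kept 52 and quantile normalization 47. Both kept 40 named members, among them MB21D1, TNFRSF19, ANGPTL1, P2RY14, NAMPT, USP1, CYP21A2, MAPK6 and ZNF18. ITPKC, KL, CYP27B1, ADAMTS9 and STEAP4 were lost under 1 or both of the scalings. A member's excess in FL is therefore stated here on the deposited scale, and members not kept failed the rule on the rescaled values, which does not say how far apart their FL and LL means then were.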

How the data were processed

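RNA of 16 ovaries was sequenced after ribosomal RNA removal with strand-specific libraries. Per the study's methods, the authors discarded adapters and poor reads, mapped to Sscrofa10.2 (Ensembl release 86) and computed expression per transcript with RSEM. The authors deposited FPKM values rounded to 2 decimals, with transcript lengths. Because FPKM is relative to the fragments of its library, abundant transcripts depress the rest. The submitters' processing notes also name HISAT2 2.0.1 and StringTie 1.0.4, with no role given.

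The members and gene lists were chosen with earlier results of these data known. Sample titles gave the groups and replicate numbers, and each replicate is a separate sow. Fragments per library were estimated from the FPKM steps of transcripts longer than 1500 nt, at values of up to 10 fragments. Between 91.9% and 94.0% of these low values lay within 0.05 of a whole number. Fragment counts cover counting error only, since PCR copies are not independent molecules.

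FH vs LH was fitted on log2(FPKM + 1), a scale that understates the change of low transcripts, using limma 3.58.1 under R 4.3.3. Variances followed a trend with the mean, p was two-sided, and the Benjamini-Hochberg method was applied across the whole set tested. LL and FL did not enter the fit. The fit was tested on simulated data with the same noise in every library and no library set apart. That test therefore does not cover a library such as LH2. Library measures were compared by exact permutation in scipy 1.17.1, and tables and plots were made with pandas 2.3.3, numpy 2.4.6 and matplotlib 3.10.9 under Python 3.11.15. Alternatives tried were other scalings, a pseudocount of 0.1, a filter of 1 FPKM or none, no variance trend, a fit of all 16 libraries, a replicate block and leaving out each library. Limma voom and a scaling without mitochondrial fragments were added after the data were seen.

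The table has no gene names. Symbols came from the study's own pairings of transcripts with genes and from a gene name table, for 3847 of the 27370 transcripts, and 473 of 490 names that could be checked were the same in both. Named were the 15 members with a symbol and the highest FL mean, members past the threshold in FH vs LH (up to 6 with and 2 without a symbol per direction, by p), the members nearest the rule's edges and up to 4 members per functional group. Positions and sequences are left out, because an annotation of that assembly was not used here. Small RNA libraries were not analysed here. Values of one marker of the luteal and steroidogenic list are not reported here.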

Additional observations from a re-analysis of the deposited data

Results flagged for a closer look

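The highest or lowest library of each group was examined in 176 sets of 4 values, from 39 named members and 5 library measures, and 24 were separated from their group by more than Dixon's 95% limit. The limit flags about 1 in 20 sets of independent, normally distributed values, and that rate does not apply here. Members share libraries, FPKM was not transformed, and the LL and FL values chose the members. In 8 of the 24 the other 3 libraries were at 0, which passes the limit by construction. LH2 accounted for 8 of the 24.

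The members' share of fragments in LH2 was 52.4%, with 24.3% next in LH. LH2 was likewise the separate high library of LH in ITPKC at 14356 FPKM, TNFRSF19 at 1569 FPKM, FUCA2 at 967 FPKM, FIBP at 1065 FPKM and FCAR at 772 FPKM. It was also the separate library in MATN2 at 6.77 FPKM and ENSSSCT00000032125 at 28.1 FPKM, where the other LH libraries were at 0.

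FL2 was the separate high library of FL in CH242-414D14.1 at 1445 FPKM and ANGPTL1 at 618 FPKM. ATP5S was set apart in LH4 at 929.8 FPKM within LH and in FL4 at 663 FPKM within FL. Within FH, FH4 was high in ZNF18 at 205 FPKM and FH2 in ZNF510 at 82.4 FPKM, while FH3 was low in FIBP at 308 FPKM and ARHGAP6 at 213 FPKM. SLC35A1 was low in FL3 at 34.3 FPKM.

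The others rested on few fragments. In LL, EIF3M was above 0 only in LL4 at 6.40 FPKM, ENSSSCT00000026166 only in LL4 at 7.91 FPKM, ENSSSCT00000032125 only in LL1 at 3.66 FPKM and ENSSSCT00000019425 only in LL2 at 14.0 FPKM. YPEL4 was lowest in LL3 at 3.08 FPKM. In FH, ENSSSCT00000025359 was above 0 only in FH1 at 13.2 FPKM and ENSSSCT00000019425 only in FH2 at 6.27 FPKM.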

How the results depend on the processing

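The count of members higher in FH, 15 with all libraries, was 9 under median-ratio scaling, 8 under quantile normalization and 24 with a replicate block. That was 2.34%, 2.08% and 6.23% of members against 3.72%, 2.50% and 5.33% of all transcripts tested. Leaving out 1 library gave 7 to 59 members, with 59 without LH2, 25 without FH1, 8 without LH1, 7 without FH2 and 9 without FH4. The share of members exceeded that of all transcripts without LH2 (15.4% against 7.91%) and without LH4 (5.24% against 5.03%), and lay below it without each other library. The count of all transcripts passing, 424, was 781 in the fit of all 16 libraries and 328 to 609 with a library left out. Of the transcripts passing, 83.5% were higher in FH, against 72.8% under median-ratio scaling and 51.6% under quantile normalization. The median log2 fold change of the members stayed above 0 under every alternative, at 0.16 to 0.71. The median of all transcripts was also above 0 in each, and that of the members lay below it with a pseudocount of 0.1 (0.47 against 0.54), under median-ratio scaling (0.16 against 0.18), without LH3 (0.39 against 0.44) and in voom (0.39 against 0.40).

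No label says that the replicate numbers pair the sows. Deviations of same-numbered LH and FH libraries had correlations of 0.02, 0.08, -0.02 and -0.04. The sows were unrelated, and the labels do not say whether same-numbered sows shared a batch. What the block result of 24 reflects was not tested. CDIP1 fell below the threshold in 2 of 18 alternatives, MATN2 in 6, GRPEL2 in 11, YPEL4 in 10 and ENSSSCT00000019425 in 4 of 14, all with the same direction. The rule gave 165 transcripts under median-ratio scaling, 170 under quantile normalization and 395 to 518 with an LL or FL library left out. The cause of these shifts was not tested. Depth limits the 88 members with 10 or fewer LL fragments, and 4 sows per group limit every test.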

Other observations

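Some members not described above were named after their values were seen. CD300LG, an endothelial receptor of the CD300 family, had means of 129 ± 40.2, 214 ± 138, 212 ± 56.7 and 299.6 ± 40.5 FPKM in LL, LH, FH and FL (SD, n = 4), with LH2 the highest library. ACKR4, a scavenging receptor for chemokines, had 25.4 ± 23.9, 66.1 ± 16.8, 97.03 ± 12.8 and 87.5 ± 29.3 FPKM in the same order, so that FH had the highest mean. TRAF5, an adaptor of tumour necrosis factor receptors, had 12.04 ± 4.19, 25.4 ± 24.3, 17.6 ± 3.58 and 32.5 ± 7.37 FPKM, with LH2 above every FL library.

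TMEM252 and TMEM74, both membrane proteins, had FH means above their FL means. TMEM252 was at 6.87, 8.35, 5.4 and 9 FPKM in LL, 17.3, 16.9, 20.1 and 89.9 in LH, 53.6, 88.2, 78.3 and 22.03 in FH and 25.5, 25.8, 28.01 and 63.8 in FL. LH4, FH2 and FH3 lay above all FL libraries. TMEM74 was at 6.45, 8.12, 9.88 and 6.66 FPKM in LL, 14.1, 25.4, 17.4 and 40.1 in LH, 21.7, 46.9, 52.6 and 94.6 in FH and 18.6, 27.6, 25.3 and 37.1 in FL. FH4 stood highest, and all LH and FH libraries of both genes lay above all LL libraries. The rule chose members by low LL values, so a place above LL is partly set by the choice, here and in the next paragraph.

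CH242-142L3.2 and CH242-142L3.11 carried the same 16 values and count as 1 measurement, with 44.8, 54.2, 48.7 and 112 FPKM in LL, 144, 149, 141 and 333 in LH, 313, 251, 306 and 381 in FH and 317, 329, 245 and 196 in FL. FH4 was highest, and every LH, FH and FL library exceeded every LL library. Of 95 named members placed in the RefSeq gene order of assembly Sscrofa11.1, 4 pairs had at most 2 genes between them. These were SLC35A1 with AKIRIN2, P2RY14 with P2RY12, PITPNB with TTC28 and KLHL35 with GDPD5.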
